A study of Caenorhabditis elegans with 6 samples.

Results

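The F-box A family is the set of Caenorhabditis elegans genes whose WormBase symbol is fbxa- followed by a number. The symbols were looked up from the gene identifiers of the count tables, which gave 222 members of 46778 identifiers. Of these, 170 are annotated as protein-coding and 52 as pseudogenes. RNA was sequenced from whole animals as L4 larvae, the stage before adulthood, in 6 libraries. The 3 groups of 2 libraries were UM10 animals raised from egg on csgA(-) bacteria, UM10 animals raised on the K12 strain BW25113 of Escherichia coli, and wild-type N2 animals raised on the same K12 strain. UM10 carries a transgene (unkIs7 in the sample titles) in which the aex-3 promoter, active in neurons, drives human alpha-synuclein with the A53T substitution, a form linked to inherited Parkinson's disease. UM10 is a single transgenic strain, and the csgA(-) bacteria lack the gene for the major subunit of the curli amyloid fibre.

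An F-box protein joins a substrate to an SCF ubiquitin ligase, in which a cullin forms the scaffold, a RING protein brings in the ubiquitin-conjugating enzyme and a Skp1-related protein (an skr gene in worms) holds the F-box. F-box A proteins pair the F-box with an FTH domain, and the family is greatly expanded in nematodes, with most members uncharacterised. An exception is fbxa-158, which with fbxa-75 acts beside the cullin cul-6 in a ubiquitin ligase of the intracellular pathogen response, a programme set off by microsporidia, Orsay virus and blocked protein turnover.

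The food of the UM10 groups follows the sample titles, in which a library marked WT was taken as the K12 food. The names under which the tables were deposited have the foods of UM10 swapped. Each csgA(-) against K12 difference below would change sign if those names were right, and the comparisons of each UM10 group with N2 would trade places. The difference between all UM10 libraries and N2, taken as the mean of both UM10 groups against N2, does not depend on this and is given first. N2 on csgA(-) was not analysed here. The labels do not say whether the replicates came from separate cultures, so the p-values measure the spread between these libraries, which may be technical.

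The libraries held 22657727 to 23532382 gene counts, and 15331 genes passed the filter on low counts. N2 replicate 1 stood apart from the rest, with a scaling factor (trimmed mean of M values, TMM) of 0.610 against 1.02 to 1.20 in the other 5 libraries. Lists of stage markers did not all move one way between the strains. Levels are given as TMM-scaled CPM, which are counts relative to the library total times its TMM factor. All 15 oocyte genes had higher values in UM10, and 13 were called. They summed to 5326 to 9142 TMM-scaled CPM in UM10 libraries and 1409 to 1890 in N2 libraries. All 10 moulting genes had lower values, at 1073 to 2340 CPM in UM10 libraries and 4823 to 5633 in N2 libraries, and 3 were called. All 6 yolk genes had lower values in UM10 and vit-1 and vit-4 were called, but the libraries overlapped, at 6377 to 26683 CPM in UM10 libraries and 22437 to 41957 in N2 libraries. The 35 sperm genes overlapped too, at 823 to 1728 CPM in UM10 libraries and 1231 to 1511 in N2 libraries. The 8 germ-line genes summed to 943 to 1851 CPM in UM10 libraries and 376 to 1086 in N2 libraries. UM10 csgA(-) replicate 1 held 1915 CPM of inducible heat shock transcripts, against 4.14 to 161 in the other 5 libraries. The part of these differences in the results on the F-box A family was not tested, and in whole animals fewer cells of a type and less RNA per cell cannot be told apart.

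Most of the family was transcribed at low level. Of the 222 members, 17 had no count in any library, 59 had counts but did not pass the filter, and 146 were tested (111 protein-coding genes and 35 pseudogenes). The untested members had at most 52 counts over all 6 libraries, a total reached by fbxa-164. The filter asked for about 0.435 CPM in 2 libraries. It was passed in both N2 libraries by 85 members, in 1 N2 library by 33, and through UM10 libraries alone by 28. To be tested at all, the last group had to be higher in at least 2 UM10 libraries than in both N2 libraries, before TMM scaling. Over all genes that passed this way, 96.5% had positive log2 fold changes of UM10 over N2.

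Summed over all 222 members, the F-box A family made 787 and 598 TMM-scaled CPM in UM10 on csgA(-), 788 and 516 in UM10 on K12, and 397 and 432 in N2. Each of the 4 UM10 libraries lay above both N2 libraries. The summed level averaged 672 ± 137 CPM in UM10 (SD, n = 4) and 415 ± 24.7 in N2 (SD, n = 2), a ratio of 1.62. One gene, fbxa-215, carried a large share of this, and without it the ratio was 1.45, with 437 to 699 CPM in UM10 libraries and 385 and 415 in N2 libraries. The protein-coding members had a ratio of 1.59 and the pseudogenes one of 1.94. The pseudogenes nearly touched between the strains, at 53.1 to 105 CPM in UM10 libraries and 23.8 and 49.8 in N2 libraries. The libraries do not share a total on the TMM scale, and all genes together had a ratio of 0.677 of UM10 over N2. As a share of unscaled gene counts, the family took 0.0595% to 0.0944% in UM10 libraries and 0.0242% and 0.0438% in N2 libraries. This was the same order of the strains as with scaling.

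**Figure D1:**
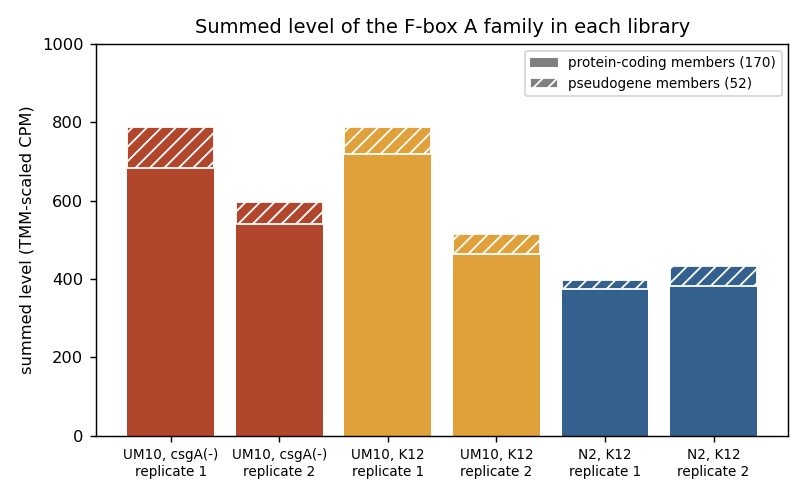
Summed TMM-scaled CPM of the 222 F-box A members in each library, with protein-coding members in plain colour and pseudogenes hatched on top. The 4 UM10 libraries stand at 516 to 788 CPM and both N2 libraries at 397 and 432.

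The comparison of UM10 with N2 asked which members differed between the transgenic and the wild-type strain. By the quasi-likelihood test of edgeR with Benjamini-Hochberg (BH) adjustment over all genes, 17 of the 146 tested members were called higher in UM10 and 1 lower, at an adjusted p under 0.05. Of all tested genes, 5.07% were called higher and 5.25% lower. Of the 17, 10 came from the 28 members that were tested only because their UM10 libraries passed the filter, 1 from the 33 that passed in 1 N2 library, and 6 from the 85 that passed in both. Over all genes, 108 of the 661 that passed through UM10 libraries alone were called higher, and 612 (4.64%) of the 13192 that passed in both N2 libraries. The called members were mostly rare transcripts, and 15 of the 17 averaged under 10 CPM in UM10. In all 17 the lowest UM10 library exceeded the highest N2 library. Among all tested members the libraries of the strains did not overlap for 56 that were higher in UM10 and for 4 that were lower, against 3237 higher (21.1%) and 2488 lower among all 15331 tested genes. At an unadjusted p under 0.05 there were 45 members higher and 2 lower, against 14.9% and 13.4% of all tested genes.

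Over all 222 members, without a filter, the mean level was higher in UM10 for 155, lower for 50 and equal for 17, the members without counts. Higher values thus made up 75.6% of those that differed, against 53.3% over all genes of the tables. Among tested members the log2 fold change was positive for 111 and negative for 35, with a median of 0.61 against -0.04 over all tested genes. These include the 28 members tested through UM10 alone, all of them positive, with a median of 2.69. Of all 15331 tested genes, 661 passed that way. With the 28 members still included, positive values were found at every level of expression. Such values made up 71.4% of the 35 tested members under 1 CPM (48.2% of all genes at that level). They made up 75.7% of the 74 between 1 and 4 CPM (44.6% of all genes) and 81.1% of the 37 at 4 CPM or more (49.2% of all genes). The 85 members that passed the filter in both N2 libraries held the call lower, and 60 of them (70.6%) had positive values, with a median of 0.36. Over all genes that passed in both N2 libraries, 45.7% had positive values, with a median of -0.09. Of the 205 members with a count, 22 (10.7%) had counts in UM10 and none in either N2 library, against 12.6% of all genes with a count, so this share was not above that of all genes. There were 2 members (0.976%) with counts in N2 and none in UM10, against 3.42% of all genes. UM10 had 4 libraries to be counted in and N2 had 2, of which replicate 1 detected the fewest genes (17475, against 18984 to 19567 in the other 5).

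The member with the highest level and a call was fbxa-215 (WBGene00012879, protein-coding, chromosome IV 13665364 to 13666909). It had 2152 and 1466 counts in UM10 on csgA(-), 3815 and 2163 in UM10 on K12, and 163 and 400 in N2. Its level was 91.1 ± 35.3 CPM in UM10 (SD, n = 4) and 14.5 ± 3.88 in N2 (SD, n = 2). The lowest UM10 library, at 56.3 CPM, stood well clear of the higher N2 library, at 17.3. The log2 fold change of fbxa-215 was 2.61 ± 0.44 (SE; edgeR, BH-adjusted p 0.00784).

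In UM10, fbxa-24 (WBGene00018803, II 3816526 to 3818238) and fbxa-170 (WBGene00016486, X 1676205 to 1678121) were also well covered. For fbxa-24 there were 206 and 197 counts in UM10 on csgA(-), 508 and 352 in UM10 on K12, and 16 and 46 in N2. The UM10 libraries lay at 7.56 to 18.6 CPM and the N2 libraries at 1.16 and 1.99, a log2 fold change of 2.82 ± 0.48 (SE; edgeR, BH-adjusted p 0.00805). For fbxa-170 the level was 5.34 and 4.15 CPM in UM10 on csgA(-), 6.45 and 5.82 in UM10 on K12, and 0.435 and 0.389 in N2, where it had 6 and 9 counts. Its 4 UM10 libraries were close to each other and far above both N2 libraries. Before TMM scaling, fbxa-170 fell under the filter in both N2 libraries. It was therefore tested through UM10 libraries alone, and its direction was largely set by the filter. The log2 fold change of fbxa-170 was 3.70 ± 0.56 (SE), and its adjusted p of 0.00558 (edgeR, BH) was the smallest in the family.

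The pathogen-response gene fbxa-158 (WBGene00015602, II 1619814 to 1621280) was close to silent in N2. Counts were 42 and 81 in UM10 on csgA(-), 82 and 56 in UM10 on K12, and 2 and 1 in N2. The ratio of the summed rates was 30.7, with an exact 95% interval of 10.4 to 150 that covers counting error only. The fitted log2 fold change was 4.79 ± 0.82 (SE; edgeR, BH-adjusted p 0.00802), and fbxa-158 was called in both UM10 groups taken alone. Its partner fbxa-75 (III 1303714 to 1305461) was not tested, with 6 and 0 counts in UM10 on csgA(-), 2 and 1 in UM10 on K12, and none in N2.

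Several called members had no or almost no reads in N2. For fbxa-99 (WBGene00009490, V 15981685 to 15982854) there were 128 and 42 counts in UM10 on csgA(-), 29 and 19 in UM10 on K12, and 0 and 0 in N2. With 3 counts per library as the floor for N2, fbxa-99 was at least 12.4-fold higher in UM10 (edgeR, BH-adjusted p 0.00947). On the opposite strand, oac-20 covers 9.45% of its exon bases, and without strand information reads from the overlap cannot be assigned. With the sum of both stranded columns its log2 fold change was 5.73 in place of 8.37, and its call on K12 over N2 was lost (edgeR, BH-adjusted p 0.0589), while its other calls against N2 held.

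Likewise fbxa-181 (WBGene00009427, V 13725874 to 13727013) had 13 and 3 counts in UM10 on csgA(-), 38 and 14 in UM10 on K12, and none in N2, at least 3.69-fold higher in UM10 (edgeR, BH-adjusted p 0.0394). For fbxa-48 (WBGene00021862, III 2266980 to 2272175) counts were 83 and 21 in UM10 on csgA(-), 23 and 9 in UM10 on K12, and 0 and 1 in N2. The ratio for fbxa-48 was 47.9 with an exact 95% counting interval of 8.46 to 1907 (edgeR, BH-adjusted p 0.0262). Another family member, fbxa-9, lies on the opposite strand over 27.4% of the exon bases of fbxa-48, and with the sum of both stranded columns in place of the unstranded counts the call of fbxa-48 was lost.

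In the group between, fbxa-30 (WBGene00013837, III 1274425 to 1275613) had 58 and 80 counts in UM10 on csgA(-), 23 and 9 in UM10 on K12, and 2 and 1 in N2, a ratio of 19.97 with an exact 95% counting interval of 6.72 to 97.8. For fbxa-166 (WBGene00015601, II 1616829 to 1619048) there were 17 and 89 counts in UM10 on csgA(-), 103 and 73 in UM10 on K12, and 2 and 4 in N2. For fbxa-83 (WBGene00013453, IV 14323237 to 14326383) there were 31 and 17 counts in UM10 on csgA(-), 90 and 47 in UM10 on K12, and 1 and 4 in N2. The strains were separated in each of these genes, while the UM10 groups were not ordered alike, since fbxa-30 was higher on csgA(-) in both libraries and fbxa-83 higher on K12 in both. The log2 fold changes of UM10 over N2 were 3.82 ± 0.87 for fbxa-30, 3.96 ± 0.86 for fbxa-166 and 3.52 ± 0.79 for fbxa-83 (SE), with adjusted p of 0.0224, 0.0189 and 0.0218 in the same order (edgeR, BH).

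The remaining calls higher in UM10 were fbxa-163 (WBGene00015598), whose UM10 libraries ranged from 0.295 to 10.7 CPM, and fbxa-127, fbxa-182, fbxa-192, fbxa-69, fbxa-206 and the pseudogene fbxa-21, with log2 fold changes of 1.99 (fbxa-206) to 2.83 (fbxa-127). Among these, fbxa-192 was the most even, at 12.7 and 8.98 CPM in UM10 on csgA(-), 9.28 and 8.66 in UM10 on K12, and 1.09 and 2.85 in N2. The pseudogene fbxa-21 was at 9.82 and 2.19 CPM in UM10 on csgA(-), 3.41 and 4.49 in UM10 on K12, and 0.869 and 0.605 in N2.

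The only call lower in UM10 was fbxa-147 (WBGene00011135, V 14716499 to 14717425), at the edge of the threshold and of the filter. It passed the filter in both N2 libraries and in no UM10 library, so its direction was largely set by the filter. It had 1 and 2 counts in UM10 on csgA(-), 8 and 6 in UM10 on K12, and 10 and 15 in N2, a log2 fold change of -2.40 ± 0.69 (SE; edgeR, BH-adjusted p 0.0488). The call of fbxa-147 was lost without any 1 of the 6 libraries. The next members in this direction by p-value were fbxa-216 (WBGene00012953, log2 fold change -1.49, BH-adjusted p 0.102 by edgeR) and fbxa-115 (WBGene00013755, -0.80, 0.237), neither of them called. The N2 libraries of fbxa-216 were far apart, at 2.68 and 9.42 CPM, and the lower one lay among the UM10 libraries, at 1.44 to 2.86.

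**Figure D2:**
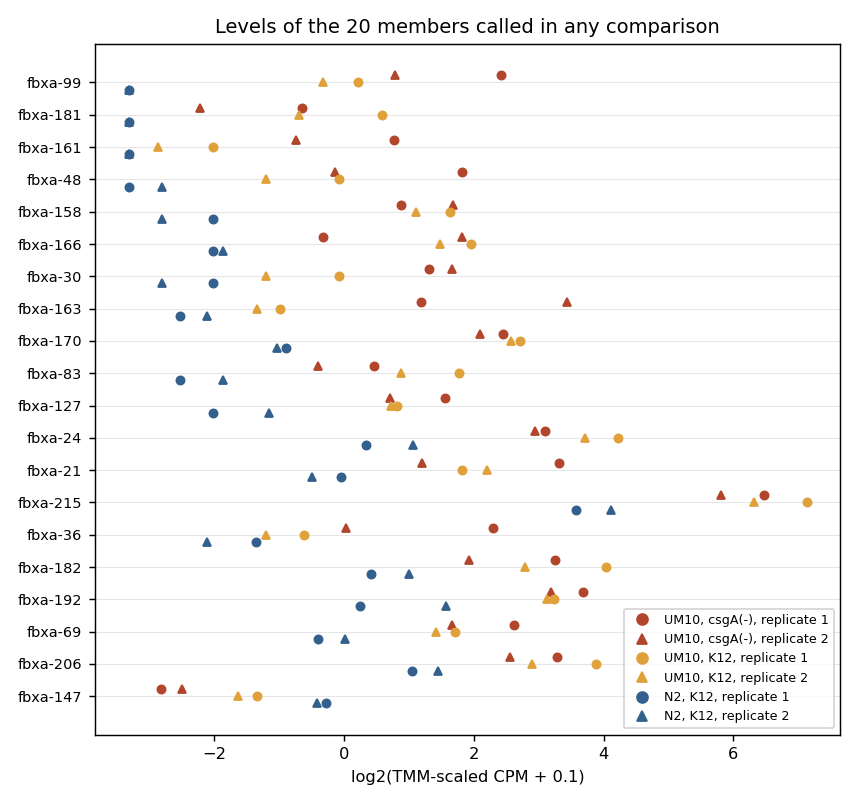
Level of each of the 20 members called in any comparison, as log2(TMM-scaled CPM + 0.1), with 1 point per library, ordered by the log2 fold change of UM10 over N2. In the 17 members called higher in UM10 over N2 all UM10 points lie right of both N2 points, and in fbxa-147 they lie left of them.

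All the calls rested on N2 replicate 1 being in the fit. Without it, no member was called in any comparison with N2, and the calls over all genes fell to 49 in the comparison of all UM10 libraries with N2. In the 17 members called higher in UM10 over N2 the lowest UM10 library exceeded the highest N2 library. Their direction could therefore hardly turn when a library was left out, and that it held is no separate support. Their log2 fold changes against N2 replicate 2 alone were 1.71 to 8.47, with a median of 3.06. The median over tested members was then 0.50, against -0.09 over all genes. Fewer members were also called without N2 replicate 2, where the share called higher was no longer above that of all genes. The median over tested members was 1.06 in that fit, against 0.11 over all genes. Calls were lost without UM10 K12 replicate 1 too, where the medians were 0.51 over tested members and -0.05 over all genes. The calls of fbxa-99, fbxa-158, fbxa-170, fbxa-24 and fbxa-215 were lost without N2 replicate 1 only, and each of the other 12 was lost without at least 1 further library.

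The members with the highest levels were mostly not called. Per kilobase of exon, the highest members, averaged over the 6 libraries, were fbxa-215 at 48.7 CPM per kilobase, fbxa-72 at 30.0, fbxa-60 at 25.8, fbxa-156 at 17.3, fbxa-210 at 13.2, fbxa-64 at 10.9, fbxa-101 at 10.8 and fbxa-59 at 8.29. The median over tested members was 1.84 CPM per kilobase. Of these 8, only fbxa-215 was called. The rest ran from fbxa-72, with a log2 fold change of UM10 over N2 of -1.16 ± 0.62 (SE), through fbxa-64 at -0.04 ± 0.40, to fbxa-210 at 1.36 ± 0.43 (edgeR, BH-adjusted p 0.0686). The second of them, fbxa-72 (WBGene00017962, V 674886 to 676753), depended on 1 library, with 64 and 722 counts in UM10 on csgA(-), 939 and 1193 in UM10 on K12, and 836 and 1124 in N2. Its low value was that of csgA(-) replicate 1, the library with the heat shock transcripts, and its part in this value was not tested.

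The family is not scattered evenly over the genome (build WBcel235). Chromosome V carries 92 members and III carries 73, against 13 on I, 21 on II, 6 on IV and 17 on X. Joined wherever the gap to the next member was at most 20 kb, 166 members fell into 31 runs of at least 2, and 126 into 13 runs of at least 4. The largest run held 33 members between 1236015 and 1349450 on III, followed by runs of 17 (III 2217173 to 2314035) and 12 (III 933422 to 963833).

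In UM10 over N2, 5 of the 17 tested members on II were called higher (5.07% of all tested genes there), 3 of 49 on III (4.38%), 2 of 3 on IV (5.23%), 6 of 57 on V (5.56%) and 1 of 8 on X (3.79%). On III, at 6.12%, the members' share was near that of all genes of the chromosome. None of the 12 on I was called by edgeR, against 6.11% of all tested genes there, although 11 of these had positive values and, at an unadjusted p under 0.05, 6 were higher and 1 lower. DESeq2 called 1 of them. The median log2 fold change was 1.52 on II and 0.36 on III, which holds the largest runs. The calls and the median on II include members that were tested through UM10 libraries alone. No test of the difference between chromosomes was made.

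A run of 9 members on II (1606595 to 1624672, all on the minus strand) had the highest median fold change of the 13 runs of at least 4. Its 6 tested members were fbxa-161, fbxa-162, fbxa-163, fbxa-165, fbxa-166 and fbxa-158. Summed over the run, UM10 had 12.5 ± 7.95 CPM (SD, n = 4) and N2 1.06 ± 0.341 (SD, n = 2). All 6 had positive log2 fold changes, with a median of 3.86, and fbxa-163, fbxa-166 and fbxa-158 were called. However, fbxa-161, fbxa-163, fbxa-165, fbxa-166 and fbxa-158 fell under the filter in both N2 libraries. These 5 were tested through UM10 libraries alone, so the direction of the run was largely set by the filter. Over all genes that passed this way, 96.5% had positive values, with a median of 1.71. The part of the filter in the median of the run was not tested. Neighbouring genes with similar sequence can share reads that the counting leaves out, so the values of single members of a run are less certain than their sum.

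A run of 5 on V (17637982 to 17659385) had more even values and a higher level. All 5 members, fbxa-191, fbxa-192, fbxa-193, fbxa-129 and fbxa-108, had log2 fold changes between 1.39 (fbxa-193) and 2.30 (fbxa-192), and fbxa-192 was called. Their sum was 26.7 ± 5.85 CPM in UM10 (SD, n = 4) and 7.80 ± 3.34 in N2 (SD, n = 2). A further run of 4 on V (18123939 to 18136022), which holds fbxa-210, stood at 31.8 ± 8.72 CPM in UM10 (SD, n = 4) and 13.2 ± 6.28 in N2 (SD, n = 2), with 4 of 4 values positive.

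The 3 large runs on III had median log2 fold changes between 0.36 and 0.96. The run of 33 had 74.2 ± 24.8 CPM in UM10 (SD, n = 4) and 57.6 ± 0.597 in N2 (SD, n = 2). Of its 24 tested members, 17 had positive values with a median of 0.38, and only fbxa-21, at its left end, and fbxa-30 were called. Their neighbours fbxa-61, fbxa-29 and fbxa-33 had log2 fold changes of -0.23, 0.38 and 0.53. The run of 12, with fbxa-59 and fbxa-60, had 82.8 ± 24.2 CPM in UM10 (SD, n = 4) and 57.2 ± 5.93 in N2 (SD, n = 2), with 8 of 9 values positive. The run of 17 had 10.6 ± 3.36 CPM in UM10 (SD, n = 4) and 5.84 ± 0.786 in N2 (SD, n = 2). Of its 7 tested members, 6 had positive values with a median of 0.96, and fbxa-48 was called.

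Genes outside the family lie next to the called members too. Of 24 such neighbours tested, 14 had positive values, against 48.2% of all tested genes. The median log2 fold change of the 24 was 0.40, against -0.04 over all tested genes. Among the 24, 2 were called higher, against 5.07% of all tested genes. The 2 were meg-4, a gene for a P granule protein of the germ line, 4833 bases from fbxa-170, with a log2 fold change of 3.27 (edgeR, BH-adjusted p 0.00734), and F54D10.7, 1907 bases from fbxa-24, with 2.35 (adjusted p 0.0233).

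**Figure D3:**
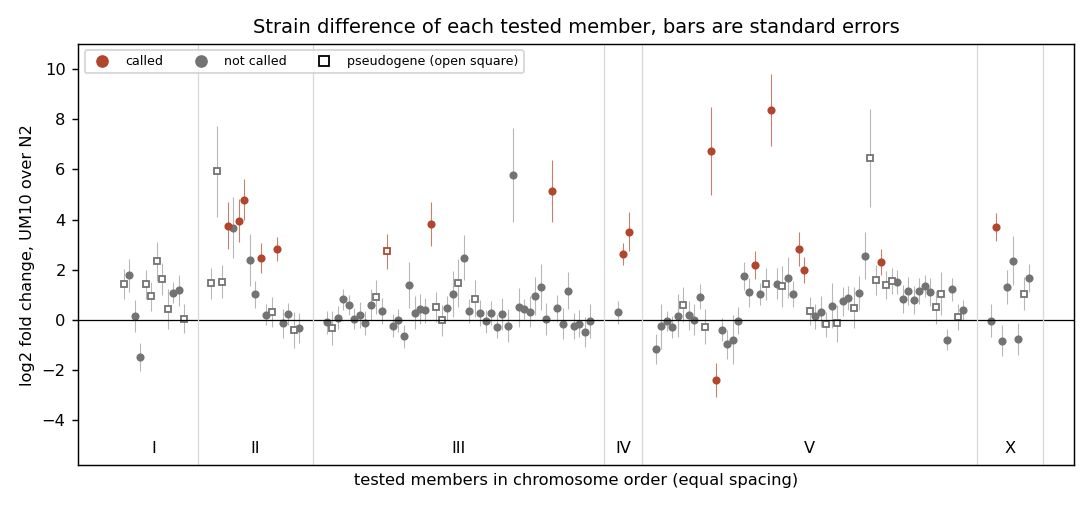
Log2 fold change of UM10 over N2 for each of the 146 tested members, in chromosome order with equal spacing, bars giving the standard error. Filled circles are protein-coding members, open squares are pseudogenes, and called members are red. The group of high points on II holds the run with fbxa-158, and III has a median of 0.36.

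Taken by food, more members were called in UM10 on csgA(-) than in UM10 on K12, each against N2. On csgA(-), 15 of 146 were called higher and 1 lower (3.95% and 5.11% of all tested genes). On K12, 8 were called higher and none lower (2.2% and 0.541% of all tested genes). At an unadjusted p under 0.05, no member was lower on K12 either, against 7.17% of all tested genes. DESeq2 called no member lower, against 369 of all 15331 tested genes. These 2 comparisons share the N2 libraries, and the difference between them is the food comparison. The calls on each food depended on single libraries, N2 replicate 1 among them for both foods, and calls over all genes fell too. With 1 library left out, the median log2 fold change over tested members on csgA(-) ran from 0.34 (without csgA(-) replicate 1) to 1.30 (without N2 replicate 2). Over all genes it was -0.01 and 0.19 in these fits. On K12 it ran from 0.20 (without UM10 K12 replicate 1) to 0.77 (without UM10 K12 replicate 2), against -0.06 and -0.10 over all genes.

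On csgA(-) the called members were fbxa-147, which was lower, and fbxa-99, fbxa-161, fbxa-48, fbxa-163, fbxa-30, fbxa-158, fbxa-36, fbxa-166, fbxa-170, fbxa-127, fbxa-21, fbxa-69, fbxa-192, fbxa-24 and fbxa-215, which were higher. On K12 they were fbxa-99, fbxa-158, fbxa-166, fbxa-83, fbxa-170, fbxa-24, fbxa-215 and fbxa-182. The K12 calls of fbxa-99, fbxa-166 and fbxa-182 were lost under upper-quartile scaling. Of the calls higher, 10 of 15 on csgA(-) and 5 of 8 on K12 came from members tested through UM10 libraries alone. The log2 fold changes on the 2 foods were close for fbxa-158, at 4.76 on csgA(-) and 4.82 on K12, and for fbxa-170, at 3.52 and 3.89 in the same order. They were apart for fbxa-163, at 5.85 on csgA(-) and 1.67 on K12, and for fbxa-30, at 4.93 and 2.72 in the same order. With a bound in place of each fitted value against N2 at 0, the median over tested members was 0.92 on csgA(-) and 0.41 on K12, against 0.07 and -0.09 over all genes in the same order.

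Called on csgA(-) alone among the comparisons with N2, the pseudogene fbxa-161 (WBGene00015596, II 1606595 to 1607603) had 39 and 13 counts in UM10 on csgA(-), 4 and 1 in UM10 on K12, and none in N2. It was at least 6.06-fold higher in UM10 on csgA(-) than in N2 (edgeR, BH-adjusted p 0.0243). For fbxa-36 (WBGene00022479, III 1291970 to 1293235) there were 117 and 24 counts in UM10 on csgA(-), 15 and 9 in UM10 on K12, and 4 and 3 in N2, so that csgA(-) replicate 1 was far above the rest. The call of fbxa-36 was lost in 5 of the 6 fits that left out 1 library, this one among them, and with only the libraries compared.

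**Figure D4:**
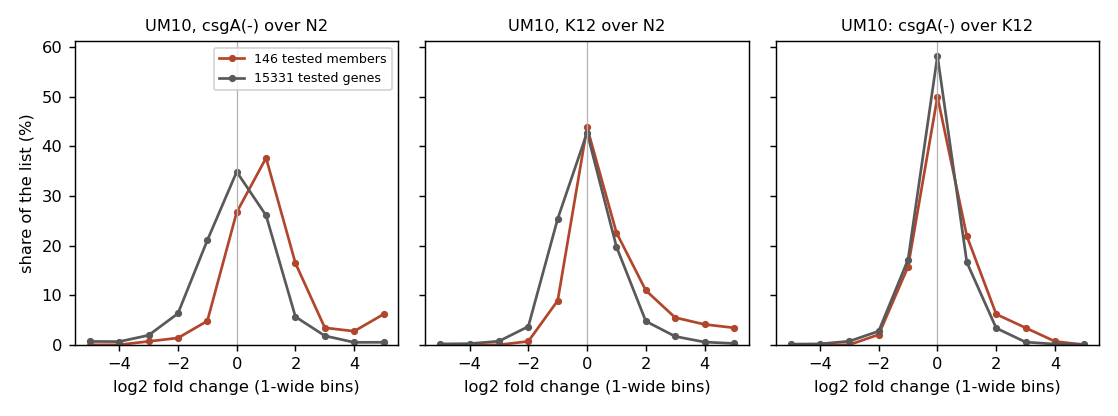
Share of the 146 tested members (red) and of all 15331 tested genes (grey) in 1-wide bins of log2 fold change, for UM10 on csgA(-) over N2, UM10 on K12 over N2, and csgA(-) over K12 in UM10. In the first 2 panels the members lie to the right of all genes, with medians of 0.95 and 0.41, and in the third the median is 0.12.

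The food comparison asked how UM10 animals differed between csgA(-) and K12 bacteria. No member was called by edgeR in either direction, and 0% of all tested genes were, while DESeq2 called 2 members higher and none lower. Of all 15331 tested genes, DESeq2 called 74 (0.483%) higher and 167 lower. At an unadjusted p under 0.05 there were 12 members higher on csgA(-) and none lower, against 5.27% and 4.65% of all tested genes. The median log2 fold change over tested members was 0.12, against 0.00 over all genes, with 86 values positive and 60 negative. The summed level of the family was 692 ± 134 CPM on csgA(-) and 652 ± 192 on K12 (SD, n = 2 each).

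The largest food difference was that of fbxa-163, in the run on II. It had 53 and 279 counts in UM10 on csgA(-), 11 and 8 in UM10 on K12, and 1 and 3 in N2. Both csgA(-) libraries were above both K12 libraries, but they differed from each other about as much as the lower one did from K12. The log2 fold change of csgA(-) over K12 was 4.19 ± 0.83 (SE; edgeR, BH-adjusted p 0.128). With DESeq2 in place of edgeR it passed, at an adjusted p of 0.000346.

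A more even difference was that of fbxa-125 (WBGene00015229, I 10646478 to 10647841), with 102 and 89 counts in UM10 on csgA(-), 13 and 16 in UM10 on K12, and 6 and 48 in N2. The replicates of each food nearly coincided, while the N2 libraries spanned most of the range between them. Its log2 fold change of csgA(-) over K12 was 2.82 ± 0.75 (SE; edgeR, BH-adjusted p 0.244), and DESeq2 gave an adjusted p of 0.0288. The third by p-value was fbxa-161, with 3.44 ± 1.01 (SE; edgeR, BH-adjusted p 0.314).

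In the other direction the smallest p-values were those of fbxa-147, with a log2 fold change of csgA(-) over K12 of -2.02 ± 0.95 (SE), fbxa-24, with -0.98 ± 0.47, and fbxa-83, with -1.38 ± 0.68, none of them called (edgeR, BH-adjusted p 0.522, 0.536 and 0.545 in the same order). For fbxa-24 both csgA(-) libraries, at 8.46 and 7.56 CPM, lay below both K12 libraries, at 18.6 and 12.97. The member with the highest level, fbxa-215, had 72.4 ± 22.7 CPM on csgA(-) and 110 ± 42.6 on K12 (SD, n = 2 each), and its ranges overlapped.

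**Figure D5:**
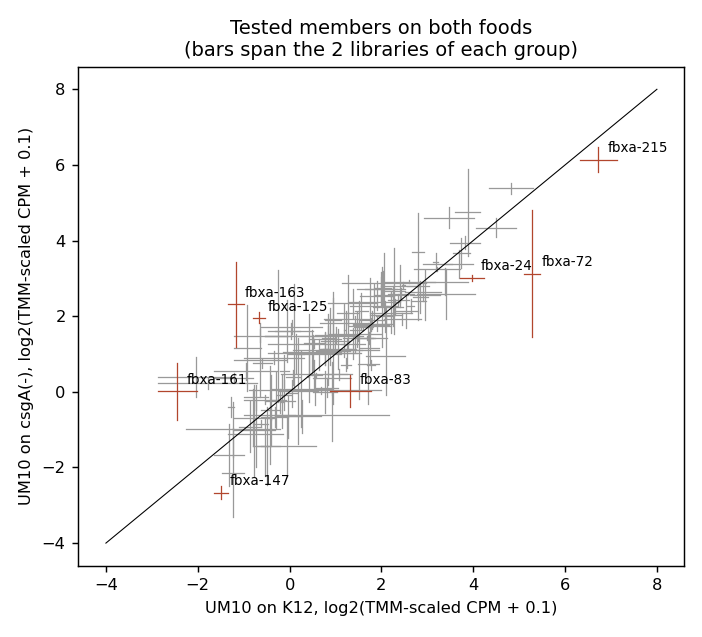
Level of each tested member in UM10 on csgA(-) (vertical) against UM10 on K12 (horizontal), as log2(TMM-scaled CPM + 0.1), with bars that span the 2 libraries of each group and a line of equal level. The named members fbxa-163, fbxa-125 and fbxa-161 lie above the line and fbxa-147, fbxa-24, fbxa-83 and fbxa-72 below it.

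The partners of the family in the ubiquitin ligase were described by the same fit. Of 24 core genes (cul-1, cul-6, rbx-1 and skr-1 to skr-21), 20 were tested and 4 were called higher in UM10 over N2, all of them Skp1-related. These were skr-14 (log2 fold change 4.21), skr-7 (3.66), skr-15 (3.44) and skr-17 (1.38), and the median over the 20 was 0.48. Of all tested genes, 5.07% were called higher. In N2, skr-14, skr-7 and skr-15 averaged 0.101, 0.289 and 0.123 CPM, under the filter of about 0.435 CPM. They were therefore tested through UM10 libraries alone, at 2.08, 3.64 and 1.48 CPM in the same order. The common scaffold cul-1 had 0.30 ± 0.36 (SE), the RING protein gene rbx-1 had 0.14 ± 0.37, and neither was called. The cullin of the pathogen response, cul-6, stood at 6.41 and 7.53 CPM in UM10 on csgA(-), 7.26 and 4.64 in UM10 on K12, and 3.98 and 5.14 in N2. Its strains overlapped, and its log2 fold change of 0.49 ± 0.43 (SE) was far from the 4.79 of fbxa-158. Of the 23 tested pals genes, which include regulators of the same response, pals-14, pals-32, pals-6 and pals-39 were called higher in UM10. The median was 1.11. Summed over all 39 pals genes the strains overlapped, at 56.8 to 109 CPM in UM10 libraries and 57.4 to 62.4 in N2 libraries. In UM10 on K12 the replicates were far apart for pals-14 (3.72 ± 4.17 CPM), pals-39 (6.77 ± 6.03) and pals-6 (3.93 ± 3.37). They were close for pals-32 (4.10 ± 0.376, SD, n = 2 each).

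The other F-box families are small in these tables. Of 113 F-box B genes 5 were tested, and fbxb-7 was called higher in UM10 (log2 fold change 3.51). Its level was 1.27 CPM in UM10 and 0.101 CPM in N2, under the filter in N2. Calls in this and the next lists stand against 5.07% of all tested genes called higher. Of 56 F-box C genes 22 were tested, 19 had positive values with a median of 0.78, and fbxc-32 (2.73) and fbxc-50 (2.07) were called higher. Among 9 other F-box genes, fog-2, which has an FTH domain too and promotes sperm formation in the hermaphrodite, rose by a log2 fold change of 1.77, and so did fsn-1 (1.36) and mec-15 (1.33). Of 59 tested BTB-MATH genes, which encode substrate adaptors of cullin-3 ligases, 5 were called higher in UM10, with a median of 0.89. Whether the F-box A family differed from these lists was not tested.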

How the data were processed

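The authors deposited unnormalized read counts per gene for each library, in the layout of STAR gene counts. STAR 2.7.5, DESeq2 1.28.1 and the build WBcel235 are named in the submitters' processing notes, and their annotation is not given in the sources used here. RNA was TRIzol-extracted and poly-A selected, per the labels' protocols. Unstranded counts were used, since the first stranded column held 48.4% to 49.7% of stranded counts. Reads mapping to several places (2.57% to 4.05%) were not counted, so near-identical copies can be under-counted.

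Symbols came from Ensembl release 115 by identifier (169 members) and RefSeq by identical coordinates (53). Differences were tested with edgeR 4.0.16 (R 4.3.3) on all 6 libraries, with filterByExpr (10 counts), TMM scaling, the quasi-likelihood F test with 3 residual degrees of freedom and Benjamini-Hochberg adjustment over 15331 genes. Each standard error is the size of the log2 fold change divided by the root of its F value. Folds against groups at 0 use a floor of 3 counts per library, and intervals and floors cover counting error only.

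Members, lists and tests were chosen with earlier results of these data known. Named members were, per comparison, up to 8 called in each direction by fold change (mean count of 20 or more in the higher group), the 8 highest per kilobase, the smallest p-values where fewer than 3 were called, and fbxa-75 and fbxa-158. Other called members, fbxa-9, fbxa-164 and run members were named after their values were seen. Alternatives were upper-quartile and RLE scaling, DESeq2 1.42.0, no filter, only the groups compared, a replicate block, summed stranded columns and each library left out.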

Additional observations from a re-analysis of the deposited data

How the results depend on the processing

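No called member changed sign under any of the alternatives. For the 17 members called higher in UM10 over N2, whose libraries did not overlap between the strains, this was largely fixed beforehand. For UM10 over N2, 17 members were called higher and 1 lower with TMM, and 17 and 1 with upper-quartile or RLE scaling. There were 29 and 2 without the low-count filter, and 24 and 0 with DESeq2. Of all 15331 tested genes, 777 were called higher with TMM, 583 with upper-quartile scaling, 691 with RLE scaling and 1295 with DESeq2. Without the filter, 1414 of 22902 genes were called higher, so calls over all genes rose there and with DESeq2 too. For UM10 on csgA(-) over N2 the counts were 15 and 1, with 31 and 2 without the filter and 22 and 1 with DESeq2. With only the libraries compared they were 10 and 0. The shares of all tested genes called higher were 3.95%, 5.60%, 6.71% and 2.36% in the same order. For UM10 on K12 over N2 there were 8 calls higher, with 5 under upper-quartile scaling, 15 with DESeq2 and 20 without the filter. The shares over all tested genes were 2.20%, 1.32%, 5.06% and 3.86% in the same order. Between the foods there were 0 calls, with 2 higher by DESeq2 (fbxa-125 and fbxa-163) and 4 higher without the filter (these and fbxa-36 and fbxa-50). Of all tested genes, DESeq2 called 0.483% higher and the fit without the filter 0.891%.

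Leaving out each library in turn, the calls higher ranged from 0 to 21 for UM10 over N2, 0 to 22 for UM10 on csgA(-) over N2, 0 to 12 for UM10 on K12 over N2 and 0 to 1 for csgA(-) over K12, and the calls lower from 0 to 1 in each but UM10 on K12 over N2, which had 0. On K12 the count was 0 without N2 replicate 1, N2 replicate 2 or UM10 K12 replicate 1, and 5 without UM10 K12 replicate 2. The 1 food call without csgA(-) replicate 1 was fbxa-163, and that without csgA(-) replicate 2 was fbxa-72, lower at a log2 fold change of -3.94. A group left with 1 library was assumed to vary like the others. The calls over all genes moved between these fits too, so the ranges do not describe the family alone.

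Replicate numbers were not taken as pairs in the main fit. Same-numbered libraries deviated together with correlations of -0.08 to 0.35, which with 2 libraries per group cannot exclude pairing. With the replicate number as a block, 22 members were called higher and 2 lower in UM10 over N2, and 22 and 2 on csgA(-) over N2. There were 12 and 0 on K12 over N2, and 1 (fbxa-163) and 0 between the foods. The shares of all tested genes called higher with the block were 8.24%, 7.75%, 3.97% and 0.457% in the same order. Of the values of single named members under the alternatives, 1357 kept their direction and side of the threshold, 146 lost and 70 gained a call, and 0 reversed. Upper-quartile scaling moved the median of all genes to -0.19 in UM10 over N2 and that of the tested members to 0.46. Depth limits most the members with N2 counts of 0 to 3, whose folds have wide intervals.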
